A study of Mus musculus with 4 samples.

Results

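The cells described here were the CD25-positive thymocytes that carried RNA of T cell receptor signalling but no Foxp3 RNA, in the working label the progenitors of regulatory T (Treg) cells. They were chosen by measured values: cells with at least 500 detected genes and under 10% mitochondrial UMIs (unique molecular identifiers, each standing for 1 captured RNA molecule), no UMI of Foxp3, Ptcra or Rag1, fewer than 3 UMIs of Mki67, at least 1 UMI of Cd4 or Trac, and at least 2 UMIs summed over Nr4a1, Egr2 and Tnfrsf9. The rule picked 781 of 18325 kept cells in the CD25+ libraries, out of 23210 kept cells in the series. Of these, 437 were in the WT CD25+ library and 344 in the PD-1 knockout CD25+ library.

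The series compared thymocytes of 3-week-old C57BL/6J mice, wild type or PD-1 knockout, by droplet single-cell RNA sequencing from the 5-prime end of transcripts. Thymi of 4 animals were pooled per library and CD8-bearing cells were depleted with antibodies to CD8a and CD8b. HSA-positive, CD73-negative CD4 T cells were then sorted into a CD25- gate, giving CD4 single-positive cells, and a CD25+ gate, giving Treg cells and CD25+ progenitors. Each of the 4 groups (WT CD25-, WT CD25+, PD-1 knockout CD25- and PD-1 knockout CD25+) was 1 library, and the differences given are between libraries, with no replicates and no test. The 4 libraries held 3118, 8215, 1767 and 10110 kept cells in that order, with medians of 4622 to 6335 UMIs per cell. Pairs of libraries shared 4 to 118 cell barcodes, and at most 1 shared barcode in a pair marked cells meeting the rule in both. All intervals are 95% intervals of counting error within these libraries (exact Poisson for levels, exact binomial for shares), and cells of 1 library are not replicates of a genotype. The labels do not say which part of Pdcd1 was deleted, and RNA of the gene was counted in the knockout-labelled cells, so its level does not check the label.

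A thymocyte whose receptor binds self peptide strongly switches on immediate-early genes such as Nr4a1 and, with co-stimulation, receptors of the TNF receptor family. Such cells may die by clonal deletion or enter the Treg lineage. In the accepted scheme for the latter, signalled CD4 cells first gain CD25, the alpha chain of the interleukin-2 receptor, and then Foxp3 under interleukin-2 and STAT5 signals. Xcl1 encodes a chemokine that draws dendritic cells carrying its receptor, and PD-1, the product of Pdcd1, is an inhibitory receptor that signalled T cells display.

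Upstream sequences of 3 genes are shown because the rule or the findings turn on them. Nr4a1 was used by the rule, and its relative Nr4a2 differed most between the genotypes among the receptor response genes listed. Xcl1 is a marker given for the label that the rule did not use, although its level rose with the UMIs of the selecting genes. The sequences are the bases before the RefSeq transcription start (build GRCm38.p6), stopped where an annotated exon began, written 5′ to 3′ on the gene's strand. Capitals mark matches, on either strand, to the cyclic AMP response core TGACG or to the Egr site GCGNGGGCG.
Nr4a1, chr15:101266596-101266845, plus strand: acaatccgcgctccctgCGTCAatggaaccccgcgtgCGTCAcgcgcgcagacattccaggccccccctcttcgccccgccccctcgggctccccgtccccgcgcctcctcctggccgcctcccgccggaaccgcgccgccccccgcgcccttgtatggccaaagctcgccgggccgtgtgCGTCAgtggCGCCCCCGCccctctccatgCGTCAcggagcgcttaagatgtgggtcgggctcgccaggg
Nr4a2, chr2:57124004-57124253, minus strand: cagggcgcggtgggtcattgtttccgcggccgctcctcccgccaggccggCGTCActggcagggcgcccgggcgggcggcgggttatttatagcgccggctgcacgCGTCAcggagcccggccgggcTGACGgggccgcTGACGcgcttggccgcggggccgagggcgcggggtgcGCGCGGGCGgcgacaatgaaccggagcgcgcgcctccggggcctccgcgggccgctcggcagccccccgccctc
Xcl1, chr1:164935566-164935772, minus strand: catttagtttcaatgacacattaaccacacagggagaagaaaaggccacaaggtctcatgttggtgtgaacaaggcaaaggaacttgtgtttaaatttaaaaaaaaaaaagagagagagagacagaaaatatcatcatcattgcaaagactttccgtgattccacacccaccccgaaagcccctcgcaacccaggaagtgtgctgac
The Nr4a1 window lay in an intron of a longer transcript of the gene, and the Nr4a2 window lay outside the gene model. Both windows held 4 matches to TGACG and 1 to the Egr site. Among all 32851 RefSeq windows of 250 bases, 17.8% held TGACG at least once and 0.137% held it 4 times or more, while 4.70% held the Egr site. The third member of the family, Nr4a3, also held 4 matches to TGACG. The 250 bases before the Xcl1 start held none of the motifs searched, which also included an NF-kB-like site, GGGNN followed by TTTCC (in 1.41% of windows) and the AP-1 site TGANTCA (in 6.75%). The second RefSeq start of Tnfrsf9, at the end of the window chr4:150927749-150927998, had both, as GGGGATTTCC from base 43 and TGAGTCA from base 15 before the start, a pair found in 0.128% of windows. That window lay inside the gene model with 81 of its bases in an annotated exon, and the window of the first Tnfrsf9 start held 0 matches. The motifs were picked after a first look at the windows, and a match is a description of letters, not of a bound site.

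The selected cells formed a larger share of one denominator and a smaller share of the other in the knockout-labelled library. Among all kept CD25+ cells they made up 5.32% (4.84 to 5.83) for WT and 3.40% (3.06 to 3.77) for the knockout-labelled library, a difference of -1.92 percentage points (-2.52 to -1.32). Among cells with a Cd4 or Trac UMI that passed the Ptcra, Rag1 and Mki67 limits they made up 34.1% of 1283 cells (31.5 to 36.7) in WT and 45.6% of 754 cells (42.0 to 49.3) in the knockout-labelled library, higher by 11.6 points (7.16 to 15.9). Most CD25+ cells were not candidates at all: 5770 of 8215 WT cells and 8004 of 10110 knockout-labelled cells held a UMI of Ptcra or Rag1, genes of earlier thymocytes whose receptor genes are still being assembled. When every cell was thinned to 3000 UMIs before the rule was applied, the shares were 3.86% and 2.42% of cells, and 29.1% and 40.7% of the Cd4- or Trac-positive cells. Of the Cd4- or Trac-positive cells, 9.04% (7.53 to 10.7) of WT and 9.28% (7.31 to 11.6) of knockout-labelled ones were signalled and Foxp3-positive. The difference was 0.243 points (-2.28 to 2.95). Of the Foxp3-positive cells among them, 26.8% (22.7 to 31.2) and 34.7% (28.1 to 41.7) were signalled. CD25- cells meeting the rule were 11.8% and 18.2% of Cd4- or Trac-positive cells in their libraries, and 8.98% and 15.1% of kept cells. Foxp3-negative cells were 79.0% and 83.1% of signalled CD25+ cells, a difference of 4.07 points (-0.977 to 8.94). The rise was thus not shown to be particular to Foxp3-negative cells. Fewer cells of another kind in a gate and more of this kind cannot be told apart from shares.

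**Figure D1:**
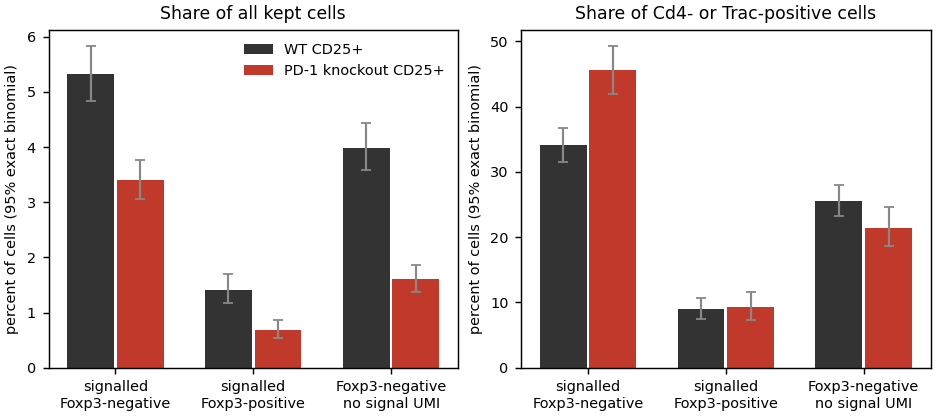
Bars give the share of cells (percent, y axis) that were signalled and Foxp3-negative, signalled and Foxp3-positive, or Foxp3-negative without a UMI of the selecting genes, in the WT and PD-1 knockout CD25+ libraries, with exact binomial 95% error bars. The signalled Foxp3-negative bar is lower in the knockout-labelled library over all kept cells (left, 3.40% against 5.32%) and higher over Cd4- or Trac-positive cells (right, 45.6% against 34.1%).

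Within the Foxp3-negative candidates, the summed UMIs of the 3 selecting genes ran from none to high without a gap. In WT, 328 of the 850 candidates held 0 such UMIs, 85 held 1 and were just outside the rule, 60 held 2 and were just inside it, and 162 held 11 or more. In the knockout-labelled library 162 of 552 held 0, 46 held 1, 42 held 2 and 163 held 11 or more, so cells with 11 or more were 29.5% of the candidates against 19.1% in WT. Cells with 1 UMI had Tnfrsf4 at 229 and 258 CPM (the gene's summed UMIs scaled to all UMIs of the group), Ikzf2 at 447 and 419 CPM, and S1pr1 at 135 and 80.1 CPM in the WT and knockout-labelled libraries. Tnfrsf9, a TNF receptor family co-stimulatory receptor, was the selecting gene seen most often, with a UMI in 87.9% of WT and 90.4% of knockout-labelled selected cells. Nr4a1, the nuclear receptor used as a reporter of receptor signalling, had a UMI in 60.9% and 64.0%, and Egr2, an immediate-early transcription factor, in 14.2% and 13.1%. These values chose the cells and are given as description.

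Xcl1 and Tnfrsf4, the markers that the rule did not use, were both abundant, and Xcl1 was higher in these cells than in any group beside them. Xcl1 stood at 447 CPM (423 to 471) in WT and 596 CPM (565 to 628) in knockout-labelled selected cells. It stood at 55.1 and 12.7 CPM in signalled Foxp3-positive cells, at 4.26 and 3.49 CPM in Foxp3-negative cells without a selecting UMI, and at 4.82 and 26.1 CPM in CD25- cells that met the same rule. Both values for the selected cells were above all 6 of the others. The groups were not matched for the selecting genes, with which Xcl1 rose (below), so the excess cannot be told apart from the rule's choice. The median of summed selecting UMIs was 8 and 10 in the selected cells and 4 and 5 in the CD25- cells. An Xcl1 UMI was found in 22.7% of WT and 26.7% of knockout-labelled selected cells, against 0.347% and 0.650% of cells with a Ptcra or Rag1 UMI, a type not expected to make it. Median depth was 6368 and 6383 UMIs in the selected cells and 6162 and 6214 in the latter, and after thinning to 1500 UMIs the Xcl1 shares were 14.2% and 17.5% against 0.101% and 0.303%. Tnfrsf4, the co-stimulatory receptor OX40, was at 655 and 662 CPM in selected cells and higher, 1090 and 1389 CPM, in signalled Foxp3-positive cells. It was at 167 and 165 CPM in Foxp3-negative cells without a selecting UMI. As a group the cells held RNA of both markers given for the label that the rule left free, though most had no Xcl1 UMI. Both markers rose with the number of selecting UMIs (below), so their levels are description and do not check the label. Whether they go on to express Foxp3 was not measured, and 0 Foxp3 UMIs in a cell does not show that the gene was silent.

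**Figure D2:**
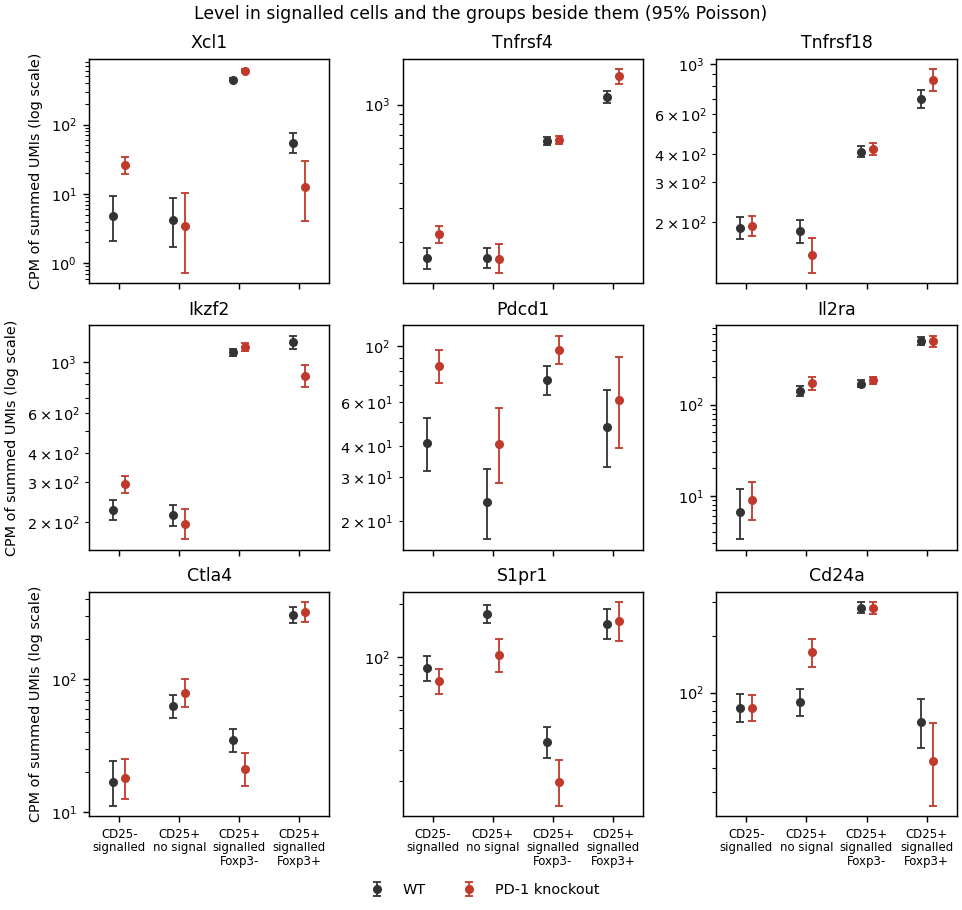
Points give the level of 9 genes (CPM of summed UMIs, log scale on the y axis) in 4 kinds of cell (x axis) for WT and PD-1 knockout libraries, with Poisson 95% error bars. Xcl1 and Cd24a peak in the CD25+ signalled Foxp3-negative cells, Ikzf2 is high with or without Foxp3, and Ctla4 and S1pr1 are far lower there than in the signalled Foxp3-positive cells.

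Xcl1 came from a minority of the selected cells. In WT, 338 of 437 selected cells had no Xcl1 UMI, 63 had 3 or more and the highest cell had 120. In the knockout-labelled library, 252 of 344 had none, 60 had 3 or more and the highest had 166. The 10% of cells with most held 90.3% of the Xcl1 UMIs in WT and 86.5% among knockout-labelled cells, whereas for Tnfrsf9 they held 30.4% and 26.1% of its UMIs. Cells with over 50 Xcl1 UMIs numbered 5 and 6 and held 33.2% and 39.8% of all Xcl1 UMIs in these groups. The Poisson interval on the summed Xcl1 level treats UMIs as independent and is therefore too narrow, and the 1.33-fold higher Xcl1 sum in the knockout-labelled cells rests on few cells. The Xcl1 ratio between the genotypes was 0.85 on the log2 scale when 2 Cd4 or Trac UMIs were required, and 0.21 without cells holding RNA of other lineages, against 0.42.

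**Figure D3:**
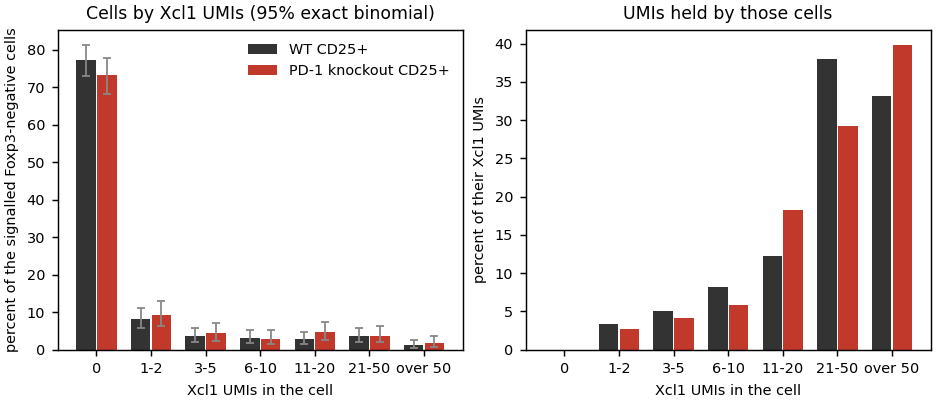
The left bars give the percent of signalled Foxp3-negative CD25+ cells with each number of Xcl1 UMIs (x axis), with exact binomial 95% error bars, and the right bars the percent of all their Xcl1 UMIs held by those cells. Cells without any make up 77.3% (WT) and 73.3% (knockout-labelled), while cells with over 50 UMIs are 1.14% and 1.74% of cells and hold 33.2% and 39.8% of the UMIs.

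Selected cells with 3 or more Xcl1 UMIs also differed from those without any in genes other than Xcl1. Nr4a3, another nuclear receptor of the Nr4a family, was at 374 CPM in WT and 299 CPM in knockout-labelled cells with 3 or more Xcl1 UMIs, and at 162 and 125 CPM in those with none. Nr4a2 was at 144 and 309 CPM against 32.2 and 57.3 CPM. Cd160, an inhibitory receptor of T and NK cells, was at 70.2 and 131 CPM against 24.5 and 23.3 CPM. Ikzf2, which encodes Helios, a transcription factor of Treg cells and strongly self-reactive thymocytes, was detected in 100% of the Xcl1-rich cells in both libraries, at 1358 and 1136 CPM against 1034 and 1134 CPM in cells without Xcl1. Genes of maturing, emigrating thymocytes were low there: Il7r, the interleukin-7 receptor, was at 1.90 and 3.53 CPM against 107 and 70.5 CPM, and Klf2, the transcription factor that controls egress, was at 74.0 and 60.1 CPM against 225 and 163 CPM. Ctla4 was at 7.59 and 1.77 CPM against 44.9 and 28.9 CPM. The Xcl1-rich cells were also deeper, with median totals of 8461 and 9467 UMIs against 5971 and 5888, and the part of depth in these values was not tested.

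Levels also ran along the number of selecting UMIs, which the rule itself used. From cells with 2 to cells with 11 or more such UMIs, Xcl1 went from 8.26 to 996 CPM in WT and from 4.33 to 968 CPM in the knockout-labelled library. Tnfrsf4 went from 300 to 909 and from 316 to 865 CPM, Itm2a, a receptor-induced membrane protein, from 903 to 1748 and from 986 to 2106 CPM, and Bcl2l11, which encodes the pro-apoptotic protein Bim, from 74.3 to 244 and from 134 to 280 CPM. In the other direction, S1pr1, the receptor for thymic exit, went from 71.6 to 11.9 and from 82.2 to 5.39 CPM, and Ctla4, an inhibitory receptor of Treg cells, from 68.8 to 10.3 and from 51.9 to 2.31 CPM. Ikzf2 was already at 773 and 852 CPM in cells with 2 UMIs. Median depth went along too, from 5024 to 7484 UMIs per cell in WT and from 4814 to 7139 in the knockout-labelled library.

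**Figure D4:**
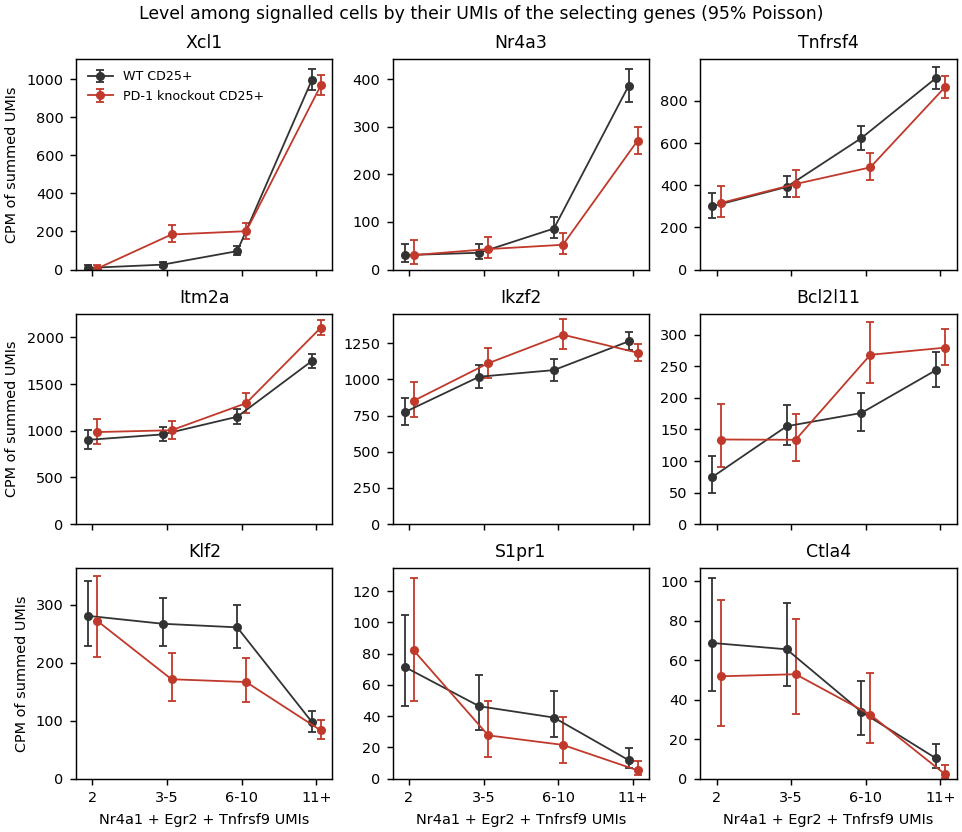
Lines give the level of 9 genes (CPM of summed UMIs, linear y axis from 0) in signalled Foxp3-negative CD25+ cells grouped by their UMIs of Nr4a1, Egr2 and Tnfrsf9 (x axis), with Poisson 95% error bars, for both CD25+ libraries. Xcl1 is at 8.26 (WT) and 4.33 CPM (knockout-labelled) in the lowest group and 996 and 968 CPM in the highest, and Klf2, S1pr1 and Ctla4 are lowest in the highest group.

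Selected cells that entered through Nr4a1 or Egr2 alone, without a Tnfrsf9 UMI, were few and unlike the rest. There were 53 for WT and 33 for the knockout-labelled library. None of them had an Xcl1 UMI, and the limit that a count of 0 allows, taken as 3 counts, is 9.92 CPM for WT and 15.6 CPM for the knockout-labelled library. Ikzf2 was at 195 and 433 CPM in them against 1204 and 1228 CPM in cells with Tnfrsf9, Egr1 at 797 and 782 against 122 and 53.3 CPM, and Zbtb7b, the transcription factor that fixes the CD4 fate, at 76.1 and 62.6 against 33.6 and 27.3 CPM. Ccr9, a homing receptor of thymocytes, was at 255 and 292 against 93.3 and 92.9 CPM. Marker genes of other thymocytes were higher in these few cells: Ly6d was at 390 and 396 against 57.2 and 37.8 CPM, and Trdc, the constant segment of the gamma-delta receptor, at 29.8 and 177 against 11.4 and 7.74 CPM. These cells were also shallower, with medians of 4876 and 4754 UMIs against 6459 and 6505 in cells with Tnfrsf9. The part of these markers and of depth in the other values was not tested.

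Against signalled Foxp3-positive cells of the same library, the selected cells were lower in most Treg identity genes. In WT, 1029 of 6883 genes at 20 CPM or more in either group (14.9%) were higher by at least 1.5-fold and 725 (10.5%) lower. In the knockout-labelled library the counts were 1511 (21.5%) and 1063 (15.1%) of 7022, on 70 Foxp3-positive cells against 116 in WT. Both genotypes shared 537 higher and 433 lower genes of 6593 tested in both, and 42 went in opposite directions. With ratios centred on the median gene the split was 768 higher and 975 lower in WT and 1188 and 1321 among knockout-labelled cells. Foxp3, chosen by the rule, was left out of the Treg identity counts. Of the other Treg identity genes at 20 CPM or more, 14 of 20 in WT and 14 of 21 in knockout-labelled cells were lower. Those counted as higher were 0 and 1, and the median log2 ratios were -1.05 and -1.38 against 0.10 and 0.11 for all genes tested.

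Ctla4 was at 34.8 and 21.4 CPM in WT and knockout-labelled selected cells and at 307 and 321 CPM in Foxp3-positive cells, 8.81-fold (6.94 to 11.2) and 15.0-fold (10.8 to 21.2) lower. Both selected values lay far below both Foxp3-positive ones. Il2ra, which encodes CD25, the sorted antigen, was at 170 and 186 CPM against 504 and 500 CPM, and Il2rb, its partner chain, at 96.2 and 85.8 against 269 and 314 CPM. Socs2, a STAT5 target, was at 1.33 against 15.9 CPM in WT and 20.3-fold lower (7.86 to 61.7) among knockout-labelled cells, on 4 and 6 UMIs in the selected cells. The remaining Treg identity genes included 6 within 1.5-fold in each genotype. Satb1, a chromatin organiser, had the highest ratio for WT and was at 671 and 466 CPM against 448 and 324 CPM, within 1.5-fold in both. Bach2, a transcriptional repressor, was at 268 against 232 CPM for WT and was the gene counted as higher among knockout-labelled cells, at 290 against 173 CPM. Ikzf2 was also within 1.5-fold, at 1103 and 1165 CPM in selected cells against 1220 and 872 CPM in Foxp3-positive cells, 1.11-fold lower in WT and 1.34-fold higher in the knockout-labelled library. Traf1, an adaptor of TNF receptors, was 3.19-fold and 4.09-fold lower, and Tnfrsf18, the receptor GITR, 1.71-fold and 2.01-fold lower. Of the interleukin-2 receptor and STAT5 genes, 8 of 14 in WT and 10 of 15 in the knockout-labelled library were lower.

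Bcl2l11 and Cd24a were among the genes that were higher than in Foxp3-positive cells. Of the deletion and apoptosis genes, 5 of 14 for WT and 6 of 14 for the knockout-labelled library were higher and 2 and 1 lower, with median log2 ratios of 0.24 and 0.54. Bcl2l11 was at 188 and 239 CPM against 44.9 and 56.1 CPM, 4.18-fold (2.91 to 6.21) and 4.26-fold (2.79 to 6.86) higher, while Bcl2, the survival protein that Bim opposes, was at 146 and 152 against 261 and 217 CPM. Cd24a, which encodes HSA, the antigen both gates required and one that falls as thymocytes mature, was at 281 and 280 against 69.5 and 43.3 CPM. Nrgn was 47.2-fold (20.2 to 146) and 11.4-fold (7.12 to 19.7) higher, Cd40lg, the CD40 ligand, 3.94-fold and 5.52-fold, and Ckb, a creatine kinase, 4.24-fold and 12.8-fold. Of the immature thymocyte genes, 8 of 11 in WT and 5 of 11 in the knockout-labelled library were higher and 0 were lower. Of the mature thymocyte and egress genes, 13 of 16 were lower in each genotype, among them S1pr1 (4.67-fold and 8.16-fold). Of the interferon response genes, 8 of 12 and 13 of 13 were lower. Ly6d, 3.47-fold and 3.73-fold higher, turned to lower (log2 ratios of -1.20 and -1.15) when cells with 2 or more UMIs over gamma-delta, CD8, Zbtb16 and Dntt genes were left out. That step kept 385 of 437 WT and 304 of 344 knockout-labelled selected cells.

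Against Foxp3-negative CD25+ cells without a selecting UMI, the selected cells carried a broad receptor and NF-kB response. Because the selecting genes split these groups, genes that follow them had to differ, and the counts are descriptions. In WT, 940 of 6938 genes (13.5%) were higher and 838 (12.1%) lower. In the knockout-labelled library 854 of 6994 (12.2%) were higher and 982 (14%) lower, and the genotypes shared 454 higher and 518 lower genes, with 10 opposite, of 6635. Of the receptor response genes at 20 CPM, 11 of 21 in WT and 10 of 21 in knockout-labelled cells were higher and 0 lower. The 2 rule genes on that list were left out of these counts. Of the NF-kB subunit and feedback genes, 9 of 17 and 9 of 18 were higher and 1 lower in each. Of the deletion and apoptosis genes, 9 of 15 and 10 of 14 were higher, with medians of 1.28 and 1.55 on the log2 scale against 0.03 and 0.02 for all genes.

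Gadd45b, a stress-induced signalling gene, was at 182 and 170 CPM against 6.09 and 8.15 CPM, 29.8-fold (16.1 to 62.5) and 20.9-fold (10.0 to 52.2) higher. Nr4a3 was 18.7-fold and 20.5-fold higher, Nr4a2 7.18-fold and 21.2-fold, and Dusp5, a phosphatase that limits ERK, 7.94-fold and 8.05-fold. Nfkbid, an atypical IkB protein, was at 142 and 175 against 31.7 and 20.9 CPM, and Bcl2a1d, a survival gene induced by NF-kB, 12.7-fold and 9.71-fold higher. Tnfrsf4, Tnfrsf18 and Tnfrsf1b, the type 2 TNF receptor, were 3.93-fold, 2.25-fold and 3.72-fold higher in WT and 4.01-fold, 2.95-fold and 4.14-fold in the knockout-labelled library. Ikzf2 was 5.15-fold and 5.92-fold higher, whereas Ctla4 was 1.80-fold and 3.71-fold lower. Of the Treg identity genes other than Foxp3, 5 of 18 were higher in each genotype, and 6 in WT and 5 in knockout-labelled cells were lower. Their median log2 ratios were -0.02 and 0.02, against 0.03 and 0.02 for all genes tested. Tyrobp, an adaptor of innate-like and myeloid cells, had 0 UMIs in the selected cells of both libraries against 101 and 115 UMIs in the comparison cells. Igfbp4 was 13.6-fold and 22.4-fold lower, Il7r 4.75-fold and 7.36-fold, and S1pr1 5.28-fold and 5.20-fold.

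RNA of other lineages differed between these groups in both directions, and its part in the counts was not tested. The summed gamma-delta markers were at 79.1 and 142 CPM in the comparison cells against 45.8 and 52.8 CPM in the selected cells, and B cell markers at 77.9 and 65.2 against 19.6 and 16.8 CPM. Innate-like markers went the other way, at 45.7 and 133 against 79.0 and 167 CPM. Without cells holding 2 or more UMIs of the other-lineage genes, the log2 ratio of Cd24a was 3.25 for WT and 2.94 for the knockout-labelled library, against 1.66 and 0.78 with them. That of Il2ra was 0.97 and 1.42 against 0.25 and 0.11, so the small Il2ra difference between signalled and unsignalled cells grew without those cells.

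Against CD25- cells that met the same rule, the selected cells showed another mix of signalling genes. In WT, 813 (11.8%) of 6885 genes were higher and 814 (11.8%) lower. In the knockout-labelled library 839 (12%) of 6991 were higher and 1048 (15%) lower, and the genotypes shared 478 higher and 540 lower genes, with 6 opposite, of 6662. Il2ra was at 6.63 and 9.03 CPM in the CD25- cells, as their gate required. The rule itself picked different cells there: Tnfrsf9 was seen in 31.8% and 43.6% of the CD25- cells and Nr4a1 in 75.7% and 66.2%. With the 2 rule genes left out, 5 of 22 receptor response genes in WT and 6 of 22 in knockout-labelled cells were higher at 20 CPM. In each genotype 8 of 22 were lower. Egr1 was 3.56-fold (3.22 to 3.94) and 4.77-fold (4.17 to 5.48) lower in the selected cells and Egr3 3.30-fold and 4.16-fold, although cells thinned to 1500 UMIs gave log2 ratios of -1.65 for Egr1 and -1.27 for Egr3 in the knockout-labelled library. Cd69, an early activation marker, was at 199 and 139 CPM against 329 and 313 CPM, and Cd5, a measure of self-reactivity, at 768 and 696 against 1067 and 952 CPM.

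On the other side, Spry1, a feedback inhibitor of receptor signalling, was 5.07-fold and 8.14-fold higher than in the CD25- cells, and Dusp4, a nuclear phosphatase of the MAP kinase pathway, 15.0-fold and 7.54-fold. Ikzf2 was at 1103 and 1165 CPM against 227 and 292 CPM, 4.86-fold (4.36 to 5.42) and 3.98-fold (3.64 to 4.36) higher. Tnfrsf4 was 3.96-fold and 3.02-fold higher. With the rule gene Tnfrsf9 left out, 5 of 11 TNF receptor family genes were higher in each genotype and 1 and 2 lower. Tbc1d4, Rgs16 and Lad1 were at least 5.17-fold higher in each genotype. Bcl2l11 was 1.69-fold and 2.09-fold higher, with a log2 ratio of 0.10 in WT after thinning to 1500 UMIs, and Bcl2 was 2.23-fold and 2.32-fold lower. Zbtb7b was at 37.8 and 30.2 against 130 and 82.2 CPM, and 11 and 13 of 16 mature thymocyte genes were lower. The ribosomal RNA transcript Gm42418, which marks RNA quality and capture, stood at 4970 and 5012 CPM in the selected cells and at 26435 and 16134 CPM in the CD25- cells. Its part in these ratios was not tested, and the gate and the library cannot be told apart.

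In the selected cells, Tnfrsf4, Ikzf2, Il2ra and Bcl2l11 each differed by less than 1.5-fold between the genotypes. Of 6737 genes at 20 CPM or more, 151 (2.24%) were higher in the knockout-labelled cells by 1.5-fold or more, and 175 (2.6%) were lower by as much. Tnfrsf4 was at 662 against 655 CPM, Ikzf2 at 1165 against 1103, Il2ra at 186 against 170, and Bcl2l11 at 239 against 188 CPM. Pdcd1 itself was at 97.2 CPM (85.1 to 110) in knockout-labelled and 73.3 CPM (64.0 to 83.7) in WT selected cells, 1.32-fold (1.10 to 1.60) higher, and past 1.5-fold (a log2 ratio of 0.68) without cells holding RNA of other lineages. Of the receptor response genes, 2 of 21 were higher, with Nr4a2 at 123 against 52.4 CPM (2.35-fold, 1.93 to 2.87) first among them, and 1 was lower, Egr1 at 112 against 190 CPM. In cells thinned to 1500 UMIs the Egr1 log2 ratio was -0.55, within 1.5-fold. Of the PD-1 pathway and other inhibitory receptor genes, Cd160 was higher at 54.4 against 32.9 CPM (1.66-fold, 1.27 to 2.17) and Ctla4 lower at 21.4 against 34.8 CPM (1.63-fold, 1.16 to 2.33), and the remaining 8 of 10 lay within 1.5-fold. The Ctla4 log2 ratio was -0.51 with cells weighted equally and -0.54 with 2 Cd4 or Trac UMIs required, within 1.5-fold.

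Maturation genes were lower as a group in the knockout-labelled cells. Of the mature thymocyte and egress genes, 6 of 16 were lower by at least 1.5-fold, 0 were higher, and 16 of 16 had a ratio below 1, with a median log2 ratio of -0.50 against -0.02 for all genes tested. Ccr7, a chemokine receptor gained in the medulla, was at 180 against 331 CPM (1.83-fold lower, 1.64 to 2.06), Il7r at 48.6 against 80.6 CPM, and S1pr1 at 19.7 against 33.2 CPM (1.69-fold lower, 1.18 to 2.44). Klf2, at 132 against 197 CPM, was 1.48-fold lower. S1pr1 gave a log2 ratio of -0.54 when 2 Cd4 or Trac UMIs were required. The knockout-labelled cells also held a larger part with 11 or more selecting UMIs, 47.4% against 37.1%, and its part in these differences was not tested. Within the cells with 11 or more, Ccr7 was at 146 against 263 CPM and Klf2 at 83.2 against 97.8 CPM. The difference was not confined to the selected cells. The 6 mature single-positive markers summed to 574 against 915 CPM in selected cells and 2008 against 2577 CPM in Foxp3-negative cells without a selecting UMI. They summed to 1528 against 1770 CPM in CD25- cells that met the rule and 2432 against 2566 CPM in signalled Foxp3-positive cells.

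Several of the largest differences between the genotypes were not confined to the selected cells. Hspa8, a constitutive heat shock protein, was at 647 CPM in knockout-labelled and 3137 CPM in WT selected cells, 4.85-fold lower, and stood at 488 and 2649 CPM in Ptcra- or Rag1-positive cells. Thy1, a surface protein of thymocytes, was at 26.0 against 113 CPM, 4.35-fold lower, and at 54.2 against 255 CPM in CD25- cells that met the rule. Rbm3 and Cirbp, proteins induced by cold, were 2.46-fold and 2.14-fold higher in the knockout-labelled cells. Gsta4 was at 90.9 against 28.9 CPM in selected cells and at 49.1 against 13.3 CPM in the CD25- cells. Tnfsf8, the CD30 ligand, was at 22.2 against 55.1 CPM in selected cells. For Rbm3, Cirbp and Tnfsf8 only the selected cells are given here. Gzma had 83 UMIs in 14 knockout-labelled cells, 34 of them in 1 cell, against 5 UMIs in WT. It was carried by 4436 of 8004 knockout-labelled Ptcra- or Rag1-positive cells, and its part through free RNA was not tested. Whether these differences belong to the genotype or to the library cannot be told apart.

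**Figure D5:**
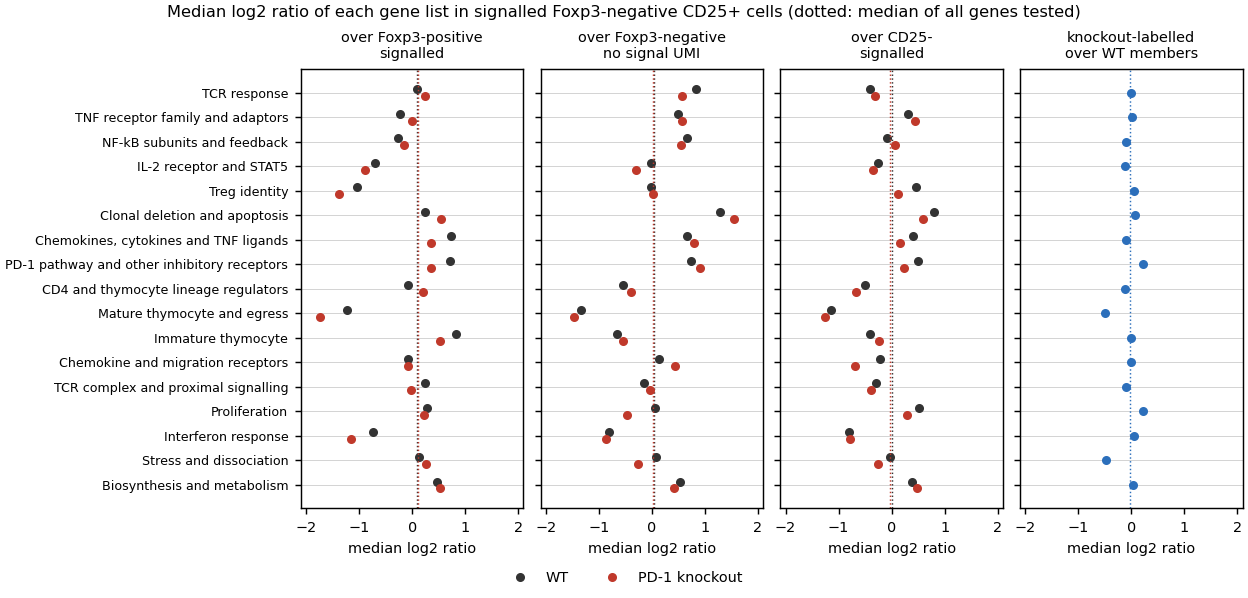
Each point gives the median log2 ratio (x axis) of 1 gene list (y axis) in signalled Foxp3-negative CD25+ cells over the group named above the panel, in WT or PD-1 knockout libraries, or between the genotypes in the right panel, with dotted lines at the median of all genes tested. Mature thymocyte genes lie to the left in all 4 panels, at -0.50 between the genotypes, and Treg identity genes are at -1.05 and -1.38 over Foxp3-positive cells.

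Other lineages and library quality were read from marker lists and doublet scores. The 3 erythroid markers were at 0 in both libraries, and B cell markers summed to 19.6 and 16.8 CPM with 2 of 6 at 0. Myeloid and dendritic markers summed to 235 and 214 CPM, led by Cst3, with 6 and 5 of 10 at 0. Gamma-delta markers summed to 45.8 and 52.8 CPM, with 2 of 7 at 0, against 1191 and 626 CPM in Ptcra- or Rag1-positive cells. Innate-like markers summed to 79.0 and 167 CPM, led by Nkg7, with 4 and 3 of 8 at 0. CD8 single-positive markers summed to 95.9 and 72.4 CPM, led by Runx3, against 36.2 and 73.9 CPM in signalled Foxp3-positive cells. Runx3 had the highest log2 ratio over those cells among the lineage regulators counted, 1.87 and 1.02. Double-positive markers summed to 163 and 139 CPM and double-negative markers to 160 and 133 CPM. Those lists include Ptcra or Rag1, held at 0 by the rule. Scrublet marked 7 of 437 and 8 of 344 selected cells as doublets, which were kept. The selected cells summed to 3013132 and 2387878 UMIs, with medians of 2525 and 2502 genes per cell.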

How the data were processed

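Gene by cell matrices of UMI counts for 32285 genes were deposited by the authors, made with Cell Ranger 6.1.2 per the file headers and 6.2.1 per the submitters' processing notes, which name build mm10. The values are raw counts, not normalized. The sort label names CD73, whereas the stain list in the labels' protocol names CD74.

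Cells with at least 500 genes and under 10% mitochondrial UMIs were kept, and the rule in the opening picked the members. The members and all gene lists were chosen with earlier results of these data known. UMIs were summed per library and cell group and given as CPM, with exact Poisson intervals (95%) and exact conditional intervals for ratios. A gene was called when it reached 20 CPM in either group and a ratio of 1.5. With 1 library per group no test was run. Named genes are the 10 highest and 10 lowest ratios per comparison among genes with at least 100 UMIs, an interval that leaves out 1 and the same direction with cells weighted equally, plus genes of the fixed lists. Shares across depths were thinned to 1500 or 3000 UMIs per cell, leaving out shallower cells. Scrublet (scanpy 1.11.5), at 0.8% expected doublets per 1000 barcodes, marked 540 of 8215 and 818 of 10110 CD25+ cells, none of which were removed. Code ran in Python 3.11.15 with numpy 2.4.6, scipy 1.17.1 and pandas 2.3.3, and was tested on simulated counts. Alternatives covered scaling, weighting, thinning, doublets, cell filters, the rule's minimums, CPM minimums and the fold.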

Additional observations from a re-analysis of the deposited data

How the results depend on the processing

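No paired analysis was possible because each group was 1 library, and no replicate could be left out. Depth limits genes under 20 CPM, and all intervals cover counting error only. The number of genes past the fold depended on the settings in every comparison. Between the genotypes it was 326, and 1404 in cells thinned to 1500 UMIs, 1105 without a CPM minimum, 98 at a minimum of 50 CPM, 510 with 2 Cd4 or Trac UMIs required and 58 at 2-fold. Against Foxp3-positive cells it was 1754 in WT, and 2919 thinned, 2772 without a minimum, 901 at 50 CPM and 572 at 2-fold. Among knockout-labelled cells it was 2574, and 1363 at 50 CPM and 1031 at 2-fold. Against cells without a selecting UMI it was 1778 in WT, and 2852 without a minimum, 1059 at 50 CPM and 602 at 2-fold. Among knockout-labelled cells it was 1836, and 3129 thinned, 964 at 50 CPM and 654 at 2-fold. Against CD25- cells it was 1627 in WT, and 2624 without a minimum, 923 at 50 CPM and 483 at 2-fold. Among knockout-labelled cells it was 1887, and 2866, 1120 and 611 under these 3 settings. A minimum of 50 CPM or a 2-fold limit can only lower the count, since it calls some of the genes called at 20 CPM and 1.5-fold. Leaving out the minimum lets in genes under 20 CPM. For thinning and the Cd4 or Trac minimum the cause was not tested.

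The share of kept WT cells, 5.32%, was 5.89% with 1000 genes and under 5% mitochondrial UMIs required, 3.86% with the rule applied at 3000 UMIs, 3.82% with 2 Cd4 or Trac UMIs, 6.35% and 4.59% with 1 or 3 selecting UMIs, and 22.3% without cells of other lineages. The knockout-labelled share, 3.40%, was 2.42%, 2.27%, 3.86%, 2.99% and 18.6% under the last 5 of these, below WT each time. Over Cd4- or Trac-positive cells the WT share was 29.1% at 3000 UMIs and 40.7% and 29.4% with 1 or 3 selecting UMIs. The knockout-labelled share was 40.7%, 51.7% and 40.1% under these and 49.4% with 2 Cd4 or Trac UMIs.

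Of 600 log2 ratios of named genes, 173 moved and 2 reversed with thinning, 73 moved and 1 reversed with 2 Cd4 or Trac UMIs, and 55 moved and 1 reversed with cells weighted equally. Without cells of other lineages, 50 moved and 2 reversed. The reversed values were Ly6d against Foxp3-positive cells (-1.20 in WT and -1.15 among knockout-labelled cells without cells of other lineages), Penk there among knockout-labelled cells (-0.33 with equal weights, -0.087 thinned), and Mta1 (0.091, thinned) and Plac8 (0.30, 2 Cd4 or Trac UMIs) against cells without a selecting UMI among knockout-labelled cells. The cause was not tested.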
